A study of Mus musculus with 20 samples.

Results

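The genes described are the 7 members of the MCM replication helicase group on the array, namely Mcm2, Mcm3, Mcm4, Mcm5, Mcm6, Mcm7 and Mcm10. They were chosen by name, with earlier results of these data known. They are 7 of the 17097 genes that had a probe set with a single gene symbol. Together they are covered by 13 of the 28898 probe sets of that kind, and all 7 passed the filter on dim genes that left 15556 genes for testing. Each gene is given by its brightest probe set, whose value was above the filter level on all 20 arrays for each of them.

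Expression was measured with 1 array per tumour in 20 tumours of the caecum of C57BL/6J mice. The tumours grew from 5 lines of mouse tumour organoids (MTO), and each line gave 2 tumours from mice that received galunisertib, a drug that blocks the kinase of the TGF-beta type I receptor, and 2 from control mice. Galunisertib was given by gavage at 10 mg, 2 times per day, from day 11 until sacrifice in week 5. The labels give genotype LAKTP for MTO68, MTO93 and MTO140, LAKP for MTO54 and LAKT for MTO207, and they do not spell out these letters. MTO68, MTO93, MTO54 and MTO207 are parental lines, which were grown under the skin first and then transplanted as tumour pieces onto the caecum. MTO140 is of type LiM and was injected as intact organoids below the serosa of the caecum, so its route differs from that of the other 4 lines. What the control mice received is not given in the sources used here. Each line is a single line, and the 2 tumours of a group are biological replicates by the study's design text. The 4 tumours of each line shared 1 array strip. Strip and line cannot be told apart, and galunisertib was compared with control within a strip. RNA came from whole tumour fragments, and in such bulk samples fewer cells of a type and less RNA per cell cannot be told apart.

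Mcm2 to Mcm7 are the subunits of a ring that encircles DNA and, as the core of the replicative helicase, unwinds it ahead of the polymerases. The origin recognition complex, Cdc6 and Cdt1 load the ring onto origins in G1 in an inactive form, and Cdc45 and the GINS complex join it when S phase starts. Mcm10 is a separate replication factor, not a subunit of the ring, that acts when the loaded helicase is activated. The genes are expressed in dividing cells and are induced by E2F transcription factors, and in the intestine they mark the proliferating epithelium of the crypt.

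In the GRCm38.p6 annotation of RefSeq, Mcm2 lies at chr6:88883474-88898780, Mcm3 at chr1:20802966-20820312, Mcm4 at chr16:15623897-15637400 and Mcm5 at chr8:75109468-75128439. Mcm6 lies at chr1:128331575-128359705, Mcm7 at chr5:138164583-138172111 and Mcm10 at chr2:4990724-5012791. Promoter windows of 300 bases (250 before and 50 after the annotated start) were available for 6 of the 7 genes in the RefSeq table, and Mcm4 has no entry there. The letters TTTCCCGC, TTTGGCGC, TTTGCCGC and TTTCGCGC, forms of the E2F motif, were searched on both strands, and 744 of all 32851 windows (2.26%) held at least 1 of them. Counted by gene, 704 of 27025 genes (2.6%) had them in at least 1 window. Among the MCM genes, Mcm3, Mcm5, Mcm6 and Mcm7 held such letters, which is 4 of 6 genes, and Mcm2 and Mcm10 held none in this window. The letters CCAAT on either strand, the core of the NF-Y motif, occurred in 37.4% of all windows and in the windows of all 6 genes. Counted by gene, 41.1% of all genes had them.

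The stretches below are shown because they hold the E2F and CCAAT letters that the MCM promoters share, or, for Mcm2 and Mcm10, show a window with CCAAT and no E2F letters. They run 5′ to 3′ on the strand of the gene, and capitals mark the E2F letters and the CCAAT letters on either strand, which can overlap each other. The start in the table is 41 bases inside the gene span given above for Mcm5, and 228 and 845 bases inside it for the 2 windows of Mcm7, while for the other 4 genes it is the first base of the span. Positions are counted from the start in the table. The first 2 stretches are 139 bases that end at the gene span of Mcm5 (chr8:75109329-75109467, plus strand) and the 180 bases upstream of the start of Mcm6 (chr1:128359706-128359885, minus strand). In Mcm5 a forward and a reverse match overlap and begin 153 and 149 bases before the start. In Mcm6 an overlapping pair begins 110 and 106 bases before the start, and a single match begins 47 bases before it.
Mcm5: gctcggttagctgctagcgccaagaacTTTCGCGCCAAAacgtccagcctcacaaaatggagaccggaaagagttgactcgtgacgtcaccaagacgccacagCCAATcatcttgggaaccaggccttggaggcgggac
Mcm6: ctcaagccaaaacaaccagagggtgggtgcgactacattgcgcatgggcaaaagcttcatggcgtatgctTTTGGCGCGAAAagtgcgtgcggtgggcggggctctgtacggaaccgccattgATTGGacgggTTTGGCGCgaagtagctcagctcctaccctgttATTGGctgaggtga

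The 180 upstream bases of Mcm2 (chr6:88898781-88898960, minus strand) and Mcm10 (chr2:5012792-5012971, minus strand) follow, with 1 and 2 CCAAT matches in capitals and no E2F match.
Mcm2: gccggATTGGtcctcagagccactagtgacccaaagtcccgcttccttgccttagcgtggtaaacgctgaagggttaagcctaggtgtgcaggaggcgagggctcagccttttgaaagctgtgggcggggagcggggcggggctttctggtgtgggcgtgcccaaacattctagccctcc
Mcm10: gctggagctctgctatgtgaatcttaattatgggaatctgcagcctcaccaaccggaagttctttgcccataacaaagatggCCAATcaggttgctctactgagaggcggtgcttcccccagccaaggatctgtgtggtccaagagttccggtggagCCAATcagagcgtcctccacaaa

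For Mcm3 (chr1:20820266-20820295, minus strand) and Mcm7 (chr5:138171850-138171879, minus strand), 30 bases around E2F letters just after the start in the table are given, for Mcm7 the start 228 bases inside the gene span. The second Mcm7 window held no E2F letters. Mcm3 has a reverse match that begins at base 20 and a forward match at base 39, counted from 1 at the start. Mcm7 has a forward match at base 17 and a reverse match 165 bases before the start, which is outside the stretch shown.
Mcm3: tgGCGGGAAAacttgggaagtTTTGGCGCc
Mcm7: tgggtgacgacgTTTCGCGCCAATttcggt

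Other replication genes had E2F letters in 4 of 8 genes of origin licensing, 2 of 7 of helicase activation, 8 of 25 of the replication fork and 0 of 6 of nucleotide supply. They were found in 7 of 16 genes of E2F and G1/S control and 2 of 3 MCM relatives. Genes of mitosis had them in 1 of 15, while CCAAT letters were found in 13 of 15. The letters TTTGAA or TTCGAA (the CHR motif) on either strand were in 19.2% of all windows, or 21.7% of all genes. Mcm2 had them in its window and Mcm7 in 1 of its 2 windows. These matches describe letters only and show no binding.

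The values are log2 levels per probe set, and levels of different genes are not compared with each other because probe sets differ in how strongly they bind. Array medians ranged from 4.93 to 5.12, and the SD of all values of an array, a measure of its spread, ranged from 1.46 to 1.83. One MTO68 control tumour, replicate 2, had an array SD of 1.47, while the other 3 MTO68 arrays had 1.76 to 1.82, so results that rest on it are given with and without it. Of the cell type markers, the 16 epithelial ones were all above the filter and 18 of 19 fibroblast and matrix ones were. The filter passed 15556 of all 17097 genes, so these counts do not by themselves show epithelium or stroma. With galunisertib all 16 epithelial markers had a positive difference over 5 lines (median 0.27) and all 18 fibroblast and matrix markers a negative one (median -0.73), and none of them passed the test. Of all genes, 50.3% had a positive difference and 0% passed. The MCM values are given with these scores as covariates after the single genes.

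Galunisertib and control tumours were first compared over all 5 lines, with the line as a block. No MCM gene passed the test, and 6 of 7 had a positive difference, with a median of 0.27 on the log2 scale against 0.00 for all genes tested. In limma at an adjusted p under 0.05, 0 of 7 members were called, beside 0% of all 15556 genes, so the result for the members is that of the whole array. At an unadjusted p under 0.05, 1 of 7 members (Mcm5) was below the threshold, beside 7.96% of all genes. Positive differences were found in 50.3% of all genes.

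Mcm5, whose protein forms with Mcm2 the gate through which DNA enters the ring, had levels of 8.32 to 9.75 (median 9.10) in the 10 galunisertib tumours and 7.81 to 9.28 (median 8.69) in the 10 control tumours. The ranges overlapped over most of their length. Its difference was 0.38 ± 0.17 (SE; 95% interval 0.03 to 0.73), with limma's adjusted p at 0.604. An exact two-sided test that permuted treatment within lines gave p = 0.0499 for Mcm5, not adjusted over the 7 genes. It was higher with galunisertib in 4 of 5 lines, and MTO93 was the exception.

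Mcm2, the other side of that gate and a binder of histones H3 and H4, had levels of 5.49 to 7.44 (median 7.11) in galunisertib tumours and 5.68 to 7.22 (median 6.57) in control tumours. Both the lowest and the highest level lay in the galunisertib group. Its difference was 0.36 ± 0.21 (SE; 95% interval -0.08 to 0.81; limma adjusted p = 0.689; exact permutation p = 0.137), with the same sign in 4 of 5 lines.

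Mcm3, the subunit that contacts the loading complex at origins, had levels of 6.69 to 8.02 (median 7.25) with galunisertib and 6.51 to 7.59 (median 6.85) in controls. The difference was 0.29 ± 0.15 (SE; 95% interval -0.02 to 0.61; limma adjusted p = 0.653; exact permutation p = 0.0797). It was the only member with a positive difference in 5 of 5 lines, which 3.75% of all genes also had, but the value in MTO93 was only 0.02. Across the members, 4 of 7 were positive in at least 4 of 5 lines, beside 17.8% of all genes.

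Mcm4 and Mcm6 form with Mcm7 the part of the ring that unwinds DNA on its own in vitro. Mcm4 had levels of 6.43 to 7.92 (median 7.16) in galunisertib tumours and 6.36 to 7.60 (median 6.67) in control tumours, and its difference was 0.27 ± 0.16 (SE; limma adjusted p = 0.689). Mcm6 had 5.70 to 6.63 (median 6.04) in galunisertib tumours and 5.56 to 6.25 (median 5.87) in control tumours, a difference of 0.08 ± 0.12 (SE; limma adjusted p = 0.821). The groups overlapped widely for both. Mcm6 was higher with galunisertib in only 2 of 5 lines.

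Mcm7 was the one member with a negative difference, -0.12 ± 0.10 (SE; 95% interval -0.33 to 0.09; limma adjusted p = 0.737). Its levels were 6.50 to 7.22 (median 6.93) in galunisertib tumours and 6.74 to 7.53 (median 6.97) in control tumours. Its sign rests on the probe set, as described further on. Mcm10 had 6.46 to 7.13 (median 6.87) with galunisertib and 6.19 to 7.28 (median 6.71) in controls, and its difference was 0.13 ± 0.09 (SE; 95% interval -0.07 to 0.32; limma adjusted p = 0.710). The control tumours of Mcm10 spanned the whole range of the galunisertib tumours.

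**Figure D1:**
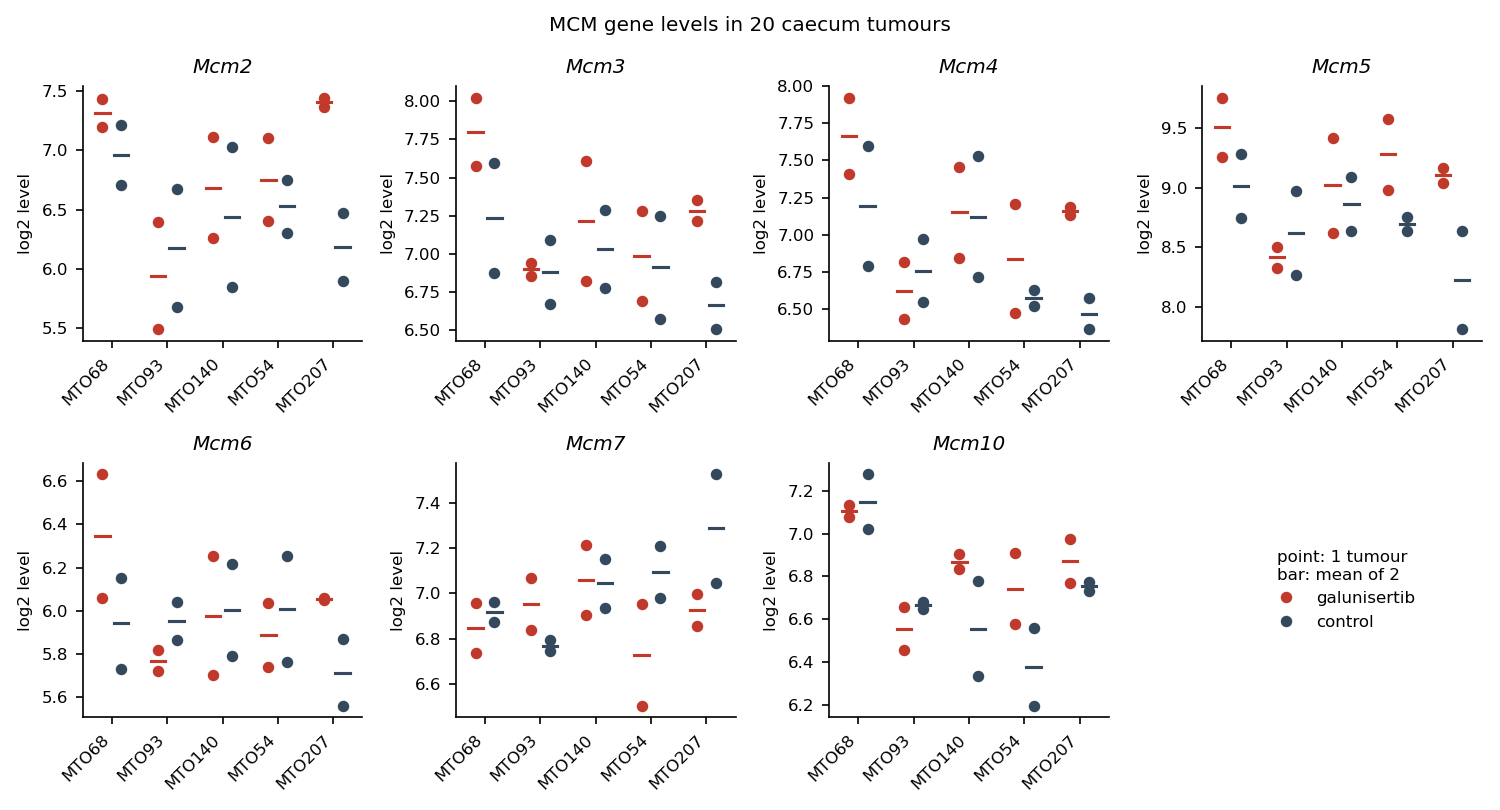
Log2 level of each MCM gene (vertical axis, its own scale per panel) in the 20 tumours, by organoid line, with galunisertib tumours left of control tumours; a point is a tumour and a bar the mean of 2. In MTO207 both galunisertib tumours lie above both control tumours for Mcm2, Mcm3, Mcm4, Mcm5 and Mcm6, while in MTO68 the groups overlap in every panel.

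The fibroblast and matrix score of each tumour was then added to the fit as a covariate, because that list differed with treatment in the opposite direction. With it 3 of 7 members passed, Mcm3 at 0.55 (limma adjusted p = 0.0469), Mcm4 at 0.66 (0.0224) and Mcm5 at 0.74 (0.0220). The same fit called 36.7% of all genes, so a count of 3 of 7 is near its background. With the epithelial score as covariate 0 of 7 members were called, beside 0.0321% of all genes, and the median of the members was 0.03. With the array SD as covariate the median was 0.14. Without the MTO207 tumours it was 0.15, and without the MTO93 tumours 0.36, with 0 of 7 called in each of these 3 fits. Both scores differ between the treatments themselves, so these fits compare tumours at a fixed score and are not the plain treatment effect.

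Within single lines, each with 2 galunisertib and 2 control tumours, MTO207 had the largest differences of Mcm2, Mcm3, Mcm4 and Mcm5. By the probe sets used, the galunisertib tumours of this line lay wholly above the control tumours for 5 of 7 members, beside 26.3% of all genes, and wholly below them for 1 of 7, beside 31.6%. Other probe sets of Mcm3 and Mcm7 went the other way, as described further on. The median difference of the members was 0.62, while that of all genes tested was -0.03. No member was called in MTO207 (limma adjusted p between 0.646 and 0.843), beside 0% of all genes, and 2 of 7 had an unadjusted p under 0.05, beside 7.53%.

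In MTO207 Mcm2 had 7.37 and 7.44 in the galunisertib tumours, against 6.47 and 5.90 in the control tumours. The galunisertib pair lay close together and well above the nearest control. The difference was 1.22 ± 0.45 (SE; 95% interval 0.25 to 2.19; limma adjusted p = 0.646, unadjusted p = 0.0175). Mcm5 had 9.04 and 9.17 in the galunisertib tumours, against 8.63 and 7.81 in the control tumours, a difference of 0.88 ± 0.36 (SE; limma adjusted p = 0.646). The lower control, replicate 2, sets much of it.

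Mcm4 in MTO207 had 7.13 and 7.18 with galunisertib, against 6.57 and 6.36 in controls (difference 0.69 ± 0.35, SE). Mcm3 had 7.21 and 7.35 with galunisertib, against 6.82 and 6.51 in controls (difference 0.62 ± 0.34, SE). Mcm6 had 6.06 and 6.05 with galunisertib, against 5.87 and 5.56 in controls (difference 0.34 ± 0.26, SE). The same control tumour, replicate 2, was the lowest of the 4 for each of these ring subunits. Mcm7 went the other way, with 6.86 and 6.996 in the galunisertib tumours, against 7.05 and 7.53 in the control tumours (difference -0.36 ± 0.22, SE). Mcm10 overlapped, with 6.98 and 6.77 in galunisertib tumours and 6.78 and 6.73 in control tumours (difference 0.12 ± 0.20, SE).

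The arrays of MTO207 also differed in spread, with SDs of 1.57 and 1.55 in the galunisertib tumours and 1.46 in both control tumours. Epithelial markers had a positive difference in 15 of 16 (median 0.41) and fibroblast and matrix markers a negative one in 16 of 18 (median -0.30) in this line. Of all genes, 45.8% had a positive difference there. The median of the members in MTO207 was 0.41 with the epithelial score as covariate, 0.70 with the fibroblast and matrix score and 0.38 with the array SD, and 0 members were called with any of them.

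In MTO68 all 7 members overlapped between the treatments, beside 31.2% of all genes wholly higher and 23.2% wholly lower. Mcm3 had 7.58 and 8.02 in the galunisertib tumours, against 7.59 and 6.88 in the control tumours. Control replicate 1 reached the level of the lower galunisertib tumour, and control replicate 2, the tumour with the narrow array, lay below all others. The median difference of the members was 0.40, and it was 0.10 without control replicate 2 and 0.62 without control replicate 1. In limma 0 of 7 were called, beside 2.01% of all genes, and 0 of 7 had an unadjusted p under 0.05, beside 33.0%.

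In MTO54 Mcm5 had 9.57 and 8.98 in the galunisertib tumours, against 8.64 and 8.76 in the control tumours (difference 0.58 ± 0.36, SE). Mcm10 also lay wholly higher with galunisertib, at 6.91 and 6.58 against 6.19 and 6.56 in controls, though only by a narrow margin (difference 0.37 ± 0.20, SE). Mcm7 lay wholly lower, at 6.95 and 6.50 with galunisertib against 6.98 and 7.21 in controls. These are 2 of 7 members higher and 1 lower, beside 17.8% and 16.4% of all genes. The median of 0.23 in MTO54 was -0.12 without galunisertib replicate 1. In limma 0 were called in MTO54, beside 0% of all genes, and 0 had an unadjusted p under 0.05, beside 2.85%.

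In MTO140 only Mcm10 did not overlap (6.83 and 6.90 with galunisertib, against 6.78 and 6.33 in controls), which is 1 of 7 higher and 0 lower, beside 8.32% and 12.6% of all genes. Its other members differed more within a treatment than between treatments, as in Mcm2 with 7.11 and 6.26 in the galunisertib tumours and 7.03 and 5.85 in the control tumours. The median of the members in MTO140 was 0.15, and it was -0.07 without control replicate 2 and -0.21 without galunisertib replicate 1. In MTO93 the median of the members was -0.13, and it was 0.15 without control replicate 1 and 0.06 without galunisertib replicate 2. Mcm7 was the 1 member wholly higher there (18.1% of all genes) and Mcm6 the 1 wholly lower (14.4%). Mcm6 had 5.72 and 5.82 with galunisertib, against 6.04 and 5.86 in controls. Limma called 0 members in MTO140, beside 0.00643% of all genes, and 0 in MTO93, beside 0%. At an unadjusted p under 0.05 the members numbered 0 in both lines, beside 3.63% of all genes in MTO140 and 1.09% in MTO93.

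**Figure D2:**
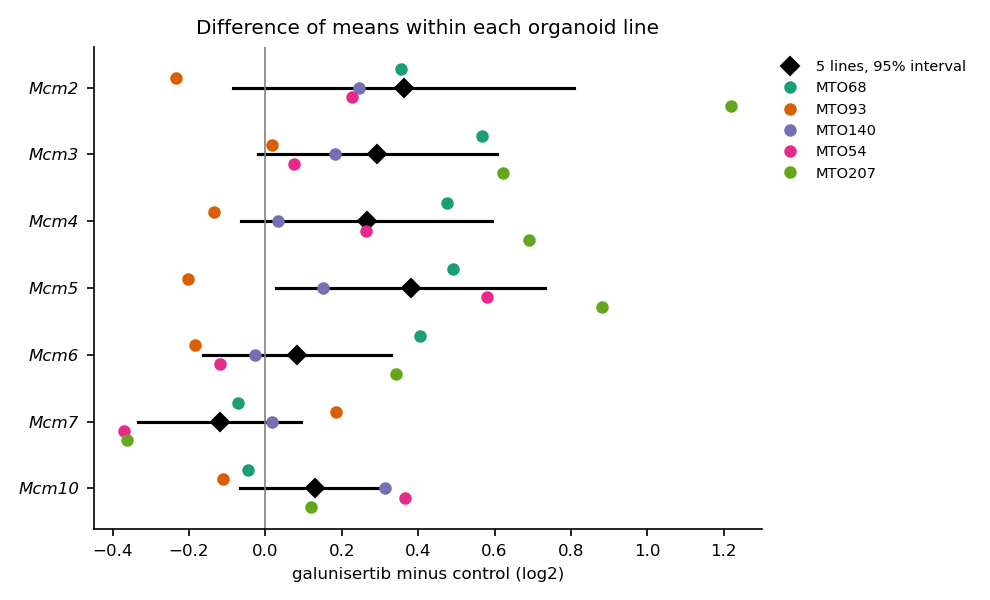
Difference of means, galunisertib minus control, on the log2 scale (horizontal axis) for each MCM gene (rows), per organoid line (coloured points) and over 5 lines (black diamond with its 95% interval). MTO207 has the largest difference for Mcm2, Mcm3, Mcm4 and Mcm5, MTO93 lies below 0 for Mcm2, Mcm4, Mcm5, Mcm6 and Mcm10, and only the interval of Mcm5 lies above 0.

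Whether the treatment difference itself differed between the 5 lines was tested by an interaction. No member passed (limma adjusted p between 0.617 and 0.789), beside 0.0643% of all genes, and 0 of 7 had an unadjusted p under 0.05, beside 8.65%. In the 3 LAKTP lines together all 7 members had a small positive difference, from 0.04 for Mcm7 to 0.26 for Mcm3, beside 52.1% of all genes with a positive one. The median was 0.12, with 0.03 without MTO68 control replicate 2 and -0.006 to 0.23 over all omissions of 1 tumour, lowest without control replicate 2 of MTO140. None was called (limma adjusted p between 0.675 and 0.916), beside 0.00643% of all genes, with 0 of 7 at an unadjusted p under 0.05, beside 9.51%.

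Levels of the MCM genes were next compared between the 5 lines, over the 4 tumours of each. By the probe sets used, MTO68 had the highest mean for every member but Mcm7. MTO93 had the lowest for every member but Mcm10, for which it was MTO54. Neighbours in this order overlapped for all members, with the exception of MTO68 over MTO207 in Mcm10. Other probe sets of some members, Mcm3 and Mcm7 among them, gave a different order. The test over the 5 line means called 1 of 7 members, Mcm10 (F = 4.87, limma adjusted p = 0.0265), beside 55.4% of all genes. Mcm4 (0.0662), Mcm2 (0.0853) and Mcm5 (0.110) followed by adjusted p, and Mcm3, Mcm7 and Mcm6 had 0.159, 0.475 and 0.594.

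By the probe set used, Mcm10 had 7.13, 7.08, 7.28 and 7.02 in MTO68, a narrow set above all other tumours. Its levels were 6.73 to 6.98 in MTO207, 6.33 to 6.90 in MTO140, 6.46 to 6.68 in MTO93 and 6.19 to 6.91 in MTO54. The line means ran in the order MTO68 (7.13 ± 0.11), MTO207 (6.81 ± 0.11), MTO140 (6.71 ± 0.26), MTO93 (6.61 ± 0.10) and MTO54 (6.56 ± 0.29; SD, n = 4 tumours each). When single tumours were left out, the counts over all genes moved as well as those of the members. The call was lost, with 0 members called, when 1 of 5 tumours was left out, namely control replicate 1 and each galunisertib tumour of MTO68, and galunisertib replicate 2 of MTO93 and of MTO54. Without MTO68 control replicate 2 the count was 2, Mcm4 and Mcm10. It was also 2 without control replicate 1 of MTO93, control replicate 1 of MTO140 or galunisertib replicate 1 of MTO54, and 3 without control replicate 2 of MTO140.

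MTO68 and MTO93, which share genotype and type in the labels, gave the only calls of members among the 5 comparisons of lines. In MTO68 minus MTO93, 4 of 7 members were called, all higher in MTO68, beside 33.4% of all genes called and 20.6% called higher. The median of the members was 0.63 and that of all genes tested 0.03. By the probe sets used, Mcm2 and Mcm10 had no overlap between the lines, which is 2 of 7, beside 9.19% of all genes wholly higher. Another probe set of each gene did overlap, as described further on.

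Mcm2 had 7.19, 7.44, 7.22 and 6.70 in the MTO68 tumours (galunisertib replicates 1 and 2, then control replicates 1 and 2), against 6.40, 5.49, 6.67 and 5.68 in the MTO93 tumours. The lowest MTO68 tumour lay just above the highest MTO93 tumour. The difference was 1.08 ± 0.32 (SE, limma adjusted p = 0.0229). Mcm10 differed by 0.52 ± 0.14 (SE, limma adjusted p = 0.0175), with all MTO68 tumours at 7.02 or above and all MTO93 tumours at 6.68 or below.

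Mcm4 had 7.41, 7.92, 7.60 and 6.79 in the MTO68 tumours, against 6.82, 6.43, 6.97 and 6.55 in the MTO93 tumours. MTO68 control replicate 2 lay within the MTO93 range and the other 3 above it. The difference was 0.74 ± 0.25 (SE, limma adjusted p = 0.0358). Mcm5 had 9.26, 9.75, 9.28 and 8.74 in the MTO68 tumours, against 8.50, 8.32, 8.97 and 8.27 in the MTO93 tumours, a difference of 0.74 ± 0.25 (SE, limma adjusted p = 0.0377). Mcm3 differed by 0.63 ± 0.24 (limma adjusted p = 0.0589), Mcm6 by 0.28 ± 0.18 (0.225) and Mcm7 by 0.02 ± 0.16 (0.924), and these did not pass. With the Mcm7 probe set of largest variance, its difference was 0.73 and passed (limma adjusted p = 0.0192).

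The array SD moved with this comparison, with a mean of 1.72 in MTO68 and 1.55 in MTO93. With the array SD as covariate 0 of 7 members were called, beside 7.21% of all genes, and the differences of Mcm2 and Mcm4 were 0.57 and 0.24. After quantile normalization of the deposited values 0 of 7 were called, beside 26.4% of all genes, with Mcm2 at 0.85 and an adjusted p of 0.0531. With array weights 0 were called (21.7% of all genes), and with the spread of all arrays made equal 1 was, Mcm2 (27.6% of all genes). Without MTO68 control replicate 1, MTO93 control replicate 2 or MTO93 galunisertib replicate 2, 0 were called. The count was 1 without either MTO68 galunisertib tumour and 2 without galunisertib replicate 1 of MTO93. It was 3 without either MTO207 galunisertib tumour, through the shared spread, and 5 without MTO68 control replicate 2. The counts over all genes also moved with the tumour left out, so these changes are not particular to the members. In the control tumours alone 0 of 7 passed, beside 0.0707% of all genes. Macrophage markers also had a positive difference in 9 of 10 (median 0.63), with 1 called, and 10 of 16 epithelial markers were positive (median 0.14). Of all genes in MTO68 minus MTO93 as deposited, 52.5% were positive and 33.4% were called. With the epithelial score as covariate Mcm2, 1 member of 7, differed by 1.08, close to the value without it. Over the 20 tumours the mean of the 7 members had r of 0.36 with the epithelial score and 0.49 with the macrophage score. After each line's mean was taken off, these were 0.61 and 0.35. The parts of epithelium and macrophages in the MCM values were not tested.

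**Figure D3:**
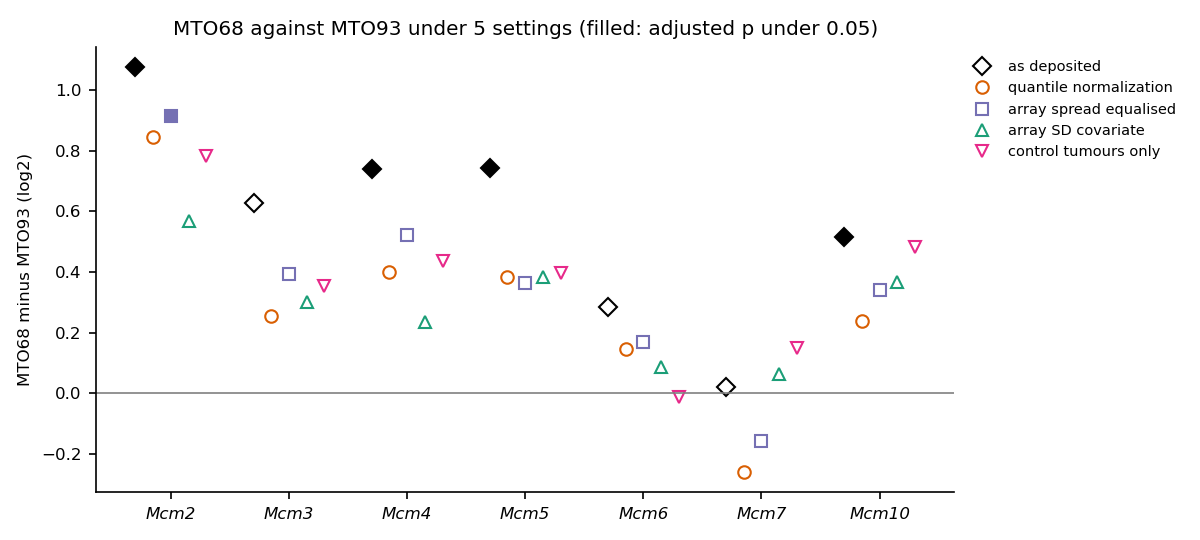
Difference of line means, MTO68 minus MTO93, on the log2 scale (vertical axis) for each MCM gene under 5 settings; filled symbols have a limma adjusted p under 0.05. As deposited, Mcm2, Mcm4, Mcm5 and Mcm10 are filled; after the array spread was equalised only Mcm2 is, and none is after quantile normalization, with the array SD as covariate or in control tumours only.

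No member was called in the other line comparisons. These were MTO140 minus the mean of MTO68 and MTO93 (13.5% of all genes called), MTO54 minus that mean (5.84%), MTO207 minus that mean (7.93%) and MTO54 minus MTO207 (1.27%). Mcm10 in MTO54 minus the mean of MTO68 and MTO93 was the 1 value among these with an unadjusted limma p under 0.05 (difference -0.31 ± 0.12, SE, limma adjusted p = 0.198). All genes reached that threshold in 31.7%, 17.5%, 34.9% and 24.2% in the 4 comparisons, in the order given. Line and strip coincide in all of them.

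The members varied together across the 20 tumours, apart from Mcm7. Among Mcm2, Mcm3, Mcm4, Mcm5, Mcm6 and Mcm10 the 15 pairs had Pearson r between 0.43 and 0.93 (median 0.81), and after each line's mean was taken off between 0.32 and 0.92 (median 0.82). Mcm3 with Mcm4 was the closest pair (0.93), and Mcm6 with Mcm10 the loosest (0.43). Mcm10, the factor outside the ring, had r of 0.43 to 0.70 with the ring subunits other than Mcm7. These are descriptions over tumours that share lines, strips and array spread. The mean of the 7 members had r of 0.61 with the array SD, and single members ranged from -0.17 for Mcm7 to 0.72 for Mcm4, beside a median of 0.13 over all genes tested.

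Mcm7 stood apart through its probe set. The probe set used, 1416030_PM_a_at, had r of -0.33 to -0.01 with the other 6 members, while the dimmer Mcm7 probe set 1416031_PM_s_at had 0.57 to 0.90. In MTO207 the dimmer probe set gave 6.30 and 6.43 in the galunisertib tumours, against 6.00 and 6.18 in the control tumours. These do not overlap and lie in the opposite order to the brighter probe set. Its mean difference over 5 lines was 0.21, positive in 4 of 5 lines, against -0.12 for the brighter probe set, and in MTO68 minus MTO93 it was 0.73, which passed, against 0.02. Its test over the 5 line means also passed (F = 5.35, limma adjusted p = 0.0197), where that of the brighter probe set did not (F = 1.00). The direction of Mcm7 can therefore not be given from these arrays. Which transcripts each probe set binds was not examined.

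**Figure D4:**
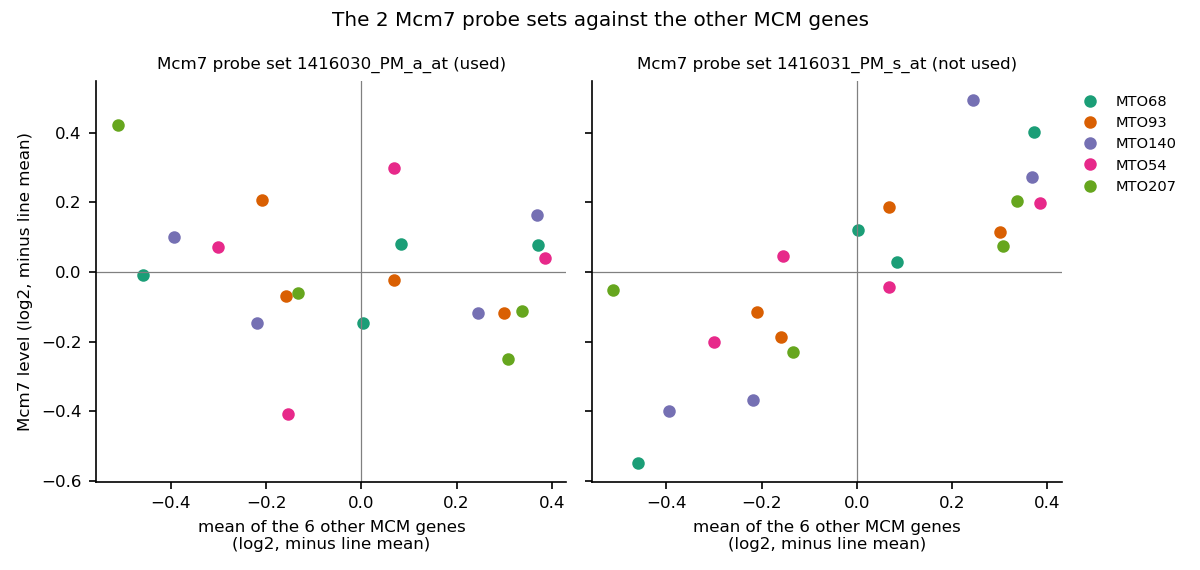
Log2 level of Mcm7 minus its line mean (vertical axis) against the mean of the 6 other MCM genes minus its line mean (horizontal axis), for the probe set used (left) and the other Mcm7 probe set (right); a point is a tumour and colours are organoid lines. The left panel shows no upward trend and the right panel does.

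Probe sets of other members differed too. The dimmer Mcm3 probe set 1426652_PM_at was nearly flat, with a difference of 0.02 over 5 lines and -0.06 in MTO68 minus MTO93, against 0.29 and 0.63 for the one used. In MTO207 it lay wholly lower with galunisertib, at 5.78 and 5.90 against 6.04 and 6.00 in control tumours. Its difference there was -0.18, against 0.62 for the one used. The second Mcm2 probe set gave 0.13 over 5 lines and 0.59 in MTO68 minus MTO93, against 0.36 and 1.08. In MTO207 it gave 0.41, against 1.22. Its MTO68 and MTO93 tumours overlapped, with 5.58 in MTO68 control replicate 2 and 5.63 in MTO93 control replicate 1. Both other Mcm10 probe sets were positive in 5 of 5 lines, with mean differences of 0.19 and 0.20, where the one used was positive in 3 of 5. In 1454244_PM_at, MTO68 control replicate 2 had 5.37, below 5.44 in MTO93 control replicate 1 and 5.62 in MTO140 galunisertib replicate 2. In 1433407_PM_at the MTO68 tumours lay above all other tumours. The second Mcm5 probe set was above the filter level on only 4 arrays. Mcm4 and Mcm6 had 1 probe set each.

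The genes whose pattern over the 20 tumours was most like the mean of the 7 members were Cdc6 (r = 0.94), which loads the MCM ring, Top2a (0.92), the topoisomerase of dividing cells, and Aurka (0.92), a mitotic kinase. Rbck1, Rpa2, Cdc20, Ube2s, Birc5, Kpna2 and Rnf126 completed the first 10, at r of 0.91 down to 0.88. After each line's mean was taken off, Mki67, a marker of cycling cells, came first (0.95), followed by Atad2, Uhrf1, Aurka, Kif11, Cdc6, Trip13, Pclaf, Nucks1 and Top2a. Of each 10, 3 genes were in both. Over all 15549 other genes, those passed over included, the median r was 0.06 and the 95th percentile 0.69 for levels. Cdc6 had a mean level of 4.20, close to the filter level of 4.16, so its values are near background.

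Values of Cdc6 and Mki67 are given because these genes ranked first by r with the MCM mean, so their likeness to it follows from that choice. The tumour with the highest MCM mean, MTO68 galunisertib replicate 2, also had the highest Cdc6 level, 5.09. Cdc6 levels were 4.27 and 4.48 in the MTO207 galunisertib tumours, against 3.94 and 3.85 in the MTO207 control tumours. Mki67 was 8.23 and 7.98 in the MTO207 galunisertib tumours, against 7.46 and 7.23 in the MTO207 control tumours. Neither gene overlapped between the treatments in MTO207, where 26.3% of all genes lay wholly higher. The same was so in MTO68, where all 7 members overlapped, and both genes overlapped in the other 3 lines.

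**Figure D5:**
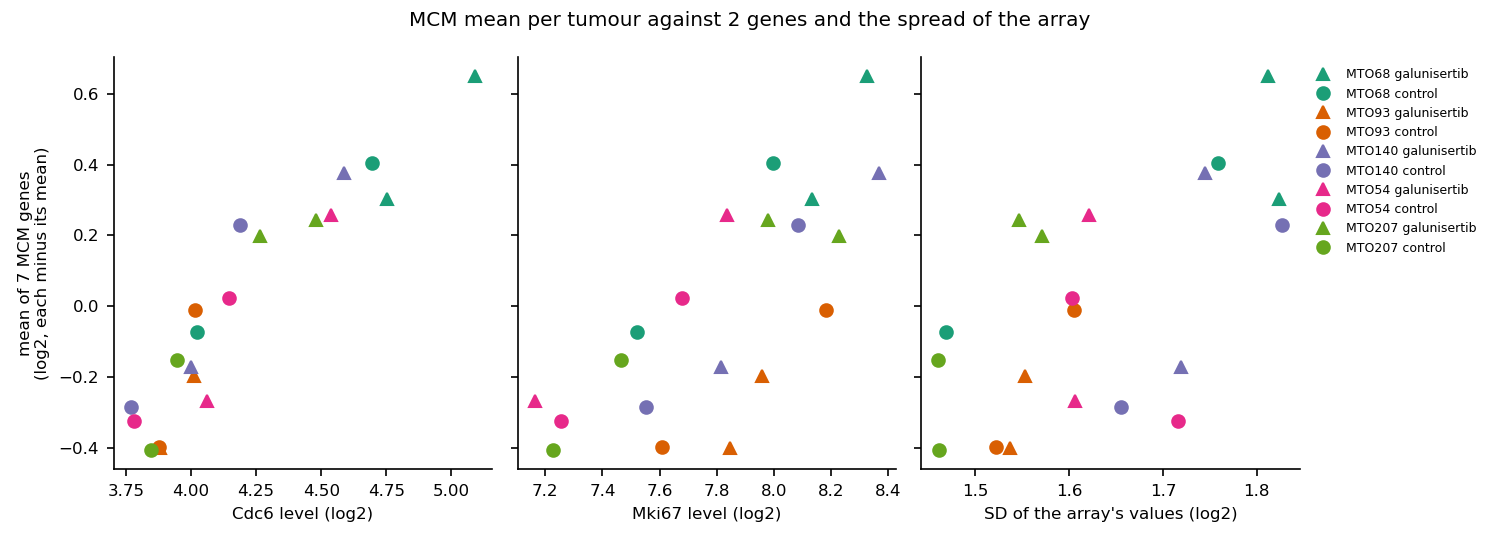
Mean of the 7 MCM genes per tumour (vertical axis, log2, each gene minus its own mean) against the log2 level of Cdc6, the log2 level of Mki67 and the SD of the array's values; triangles are galunisertib tumours, circles control tumours, and colours organoid lines. The MCM mean climbs with Cdc6 and Mki67 and more loosely with the array SD (r = 0.61). Cdc6 and Mki67 are shown because they ranked first by r with this mean, so their climb follows from that choice.

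The other genes of DNA replication and division were read from lists in the same fits. Over 5 lines none of their members was called. Positive differences were found in 6 of 8 genes of origin licensing (median 0.08), 7 of 11 of helicase activation (0.03), 25 of 26 of the replication fork (0.14) and 6 of 6 of nucleotide supply (0.14). The E2F and G1/S list had 15 of 20 (0.05), mitosis 17 of 19 (0.17) and the MCM relatives Mcm8, Mcm9 and Mcmbp 2 of 3 (0.06), all beside the 50.3% of all genes. The 7 MCM genes, at a median of 0.27, were the list of largest median among these, as a description only. The genes of smallest p in their lists included Cdc6 (0.34, limma adjusted p = 0.364), Rrm2, a subunit of ribonucleotide reductase (0.42, 0.486), Rfc3 of the clamp loader (0.32, 0.586) and Mki67 (0.31, 0.616).

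In MTO68 minus MTO93 partners of the ring were called as well. Origin licensing had 5 of 8 genes called higher, among them Gmnn (0.84), the inhibitor of Cdt1, Cdc6 (0.69), Cdt1 (0.65) and Orc4 (0.61), while Orc1, the largest subunit of the origin recognition complex, was called lower (-0.47). Helicase activation had 3 of 11, with Gins1 at 1.02, Mtbp at 0.54 and Gins2 at 0.45. The replication fork had 12 of 26, among them Rpa1 (1.23), a subunit of the single-strand binding protein, Prim1 (1.09), the catalytic subunit of primase, and Pold2 (0.99), a subunit of DNA polymerase delta. Nucleotide supply had 2 of 6, E2F and G1/S control 4 of 20, mitosis 6 of 19 and the MCM relatives 1 of 3, the last being Mcmbp (0.41), a binder of the MCM proteins. All of these stand beside the 20.6% of all genes called higher in this comparison. The same shift in array spread applies to them.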

How the data were processed

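The authors deposited log2 levels per probe set. The submitters' processing notes name RMA and affy, with no version. RMA in general removes background, equalises the distribution of probe values by quantiles and summarises probes per probe set, which narrows differences between arrays. The deposited values still differed in spread, with array SDs of 1.46 to 1.83, and the reason was not examined. Of 45141 probe sets, 28898 had a single gene symbol, and 28689 of these were matched to current symbols by Entrez ID. Each of 17097 genes was given by its probe set with the highest mean, and the 15556 genes that exceeded 4.16 (the 25th percentile over the table) on 2 arrays or more entered the tests. The number of arrays limits the precision.

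Models were run in limma 3.58.1 under R 4.3.3, with a trended eBayes step, over 5 lines with the line as a block and otherwise from a model of 10 line-by-treatment groups with a shared spread. All tests were two-sided, and p-values were adjusted by Benjamini-Hochberg across the 15556 genes, with a threshold of 0.05. The exact permutation test had 7776 arrangements, with a smallest p of 0.000257. The fits were tested on simulated data. Tumours labelled LY were taken as galunisertib tumours and those labelled Con as controls. Replicates were numbered in accession order and pair no samples. The members, lists and tests were chosen with earlier results of these data known. All 7 members are described. From the other lists up to 4 genes past the threshold, or 3 of smallest p, are named. The 10 genes of highest r are named with Gm, Rik and similar symbols passed over. Some list genes were not analysed here. Scores are means over the genes of a list, and for the mean of the 7 members each gene was centred first. Promoter letters come from the RefSeq table of GRCm38.p6. Figures used matplotlib 3.10.9. Alternatives were the filter, the probe set, centring, quantile normalization, the moderation, array weights, the treatment of the line, covariates and the omission of arrays and lines; equalised array spread and covariates in the model of 10 groups were added after seeing the data.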

Additional observations from a re-analysis of the deposited data

Results flagged for a closer look

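Among the 4 MTO93 tumours, Mcm10 in galunisertib replicate 2 stood apart from the other 3. Its log2 level was 6.46, while the other galunisertib tumour had 6.66 and the control tumours 6.68 and 6.65. Of 49 groups checked this was the 1 that stood out. Chance alone flags about 1 group in 20, so 1 of 49 is no more than chance would give.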

How the results depend on the processing

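Over 5 lines, 0 members were called under 18 of 19 alternatives and without any single tumour, and the fibroblast and matrix covariate gave 3, where it also moved the count over all genes to 5703. Within each line, in the LAKTP lines and for the difference between lines, 0 members were called under each alternative run. For MTO68 minus MTO93 the count of 4 became 0 after quantile normalization, with array weights, with the array SD covariate and in control tumours only, 1 after the array spread was equalised, and 0 to 5 when single tumours were left out; the spread-equalised and array SD fits were chosen after seeing the data. For levels between lines the count of 1 became 2 with the mean of probe sets and with the fibroblast and matrix covariate, 0 with array weights and in control tumours only, and 0 to 3 without single tumours, with 3 reached without MTO140 control replicate 2.

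The median of the members in MTO68 moved to -0.0018 after quantile normalization and to -0.0148 with the array SD covariate, that of MTO140 to 0.52 with the fibroblast and matrix covariate, that of MTO140 minus the parental LAKTP lines to -0.41 with the epithelial covariate, and that of MTO68 minus MTO93 to 0.26 after quantile normalization. Signs turned for Mcm10 in MTO207 after quantile normalization (-5e-04) and with the epithelial covariate (-0.0185), for Mcm6 over 5 lines with the epithelial covariate (-0.0641), and for Mcm6 in MTO68 minus MTO93 in control tumours only (-0.0107). Mcm7 turned over 5 lines to 0.21 with the probe set of largest variance and 0.0426 with the mean of probe sets, and in MTO207 to 0.28 with the probe set of largest variance. In MTO68 minus MTO93 it turned to -0.26 after quantile normalization and -0.16 after the spread was equalised, and ranged from -0.0374 to 0.0781 without single tumours. Apart from the change of probe set and the smaller number of tumours, the cause was not tested.

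Counts over all genes varied more: over 5 lines from 0 to 5703 across alternatives and 43 without MTO68 control replicate 2, in MTO68 from 13 to 8039, in MTO68 minus MTO93 from 11 to 8477 and for levels between lines from 27 to 10725. With 2 tumours per group, single-line intervals for Mcm2 were nearly 2 log2 units wide. The labels pair no single tumours, so treatment was compared within lines and not within pairs.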
